A study of Sus scrofa with 21 samples.

Results

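Most genes expressed in the testis are expressed in every boar. The genes described here were not: they had clear read counts in some testis libraries and next to none in others. They were chosen from the measured values, as genes with at least 2 CPM (the read count of a gene per 1000000 gene counts of its library) in at least 3 of 21 libraries and under 0.1 CPM in at least 3 others. Below, a gene is called on in a library at 2 CPM or more and off under 0.1 CPM. Of the 25880 genes counted, 30 met the rule. For scale, 12612 genes were on in at least 3 libraries, 10919 were off in at least 3, and 10036 were on in all 21.

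RNA from testis tissue of 13 purebred Landrace boars (L) and 8 purebred Duroc boars (D) was sequenced, with 1 library per boar. The boars came from a breeding station for artificial insemination, and their testes were collected at slaughter. They had been chosen for extreme values of sperm hyperactivity, the vigorous, asymmetric tail beat that sperm show near fertilization, which was measured by computer-assisted sperm analysis of ejaculates and not in the tissue. In contrast (i), 4 Landrace boars with high hyperactivity at day 0 (L5, L6, L7 and L8) are set against 4 with low hyperactivity (L1, L2, L3 and L4). In contrast (iii), 3 Landrace boars whose hyperactivity changed much during 96 h of liquid storage (L7, L13 and L15) are set against 4 in which it changed little (L2, L9, L10 and L12). L2 and L7 are in both contrasts. Of the Duroc boars, 5 are labelled High (D1 to D5) and 3 Low (D6, D7 and D9) at day 0. The study's own account puts each Duroc boar of the same name, D5 excepted, in the opposite group, so the direction of any Duroc difference in hyperactivity is uncertain. The boars' ages at tissue collection are not in the labels, and the tissue is whole testis. In such bulk samples, fewer cells of a type and less RNA per cell cannot be told apart.

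In a mammalian testis most messenger RNA comes from germ cells, above all from spermatids and spermatocytes, which use a wider set of genes than almost any other cell. The rest comes from Sertoli cells, which nurse the germ cells, from the androgen-making Leydig cells and from vessels, muscle-like peritubular cells and immune cells. A gene that is silent in whole testis of one animal and used in another therefore need not be a gene of germ cells. The counts say how many reads were assigned to a gene, and no cause of an on or off state was tested.

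The libraries held 41358671 to 125576407 gene counts, so that the off level of 0.1 CPM stood for 4.14 to 12.6 reads and the on level of 2 CPM for 82.7 to 251 reads. A count of 0 allows up to 3 counts, or 0.0239 to 0.0725 CPM depending on the library, which covers counting error only. The counts of the fixed spermatid marker genes summed to 7150 to 14500 CPM in Landrace and 11000 to 14000 CPM in Duroc, and those of the Leydig markers to 386 to 4280 and 1100 to 3630 CPM. None of the 30 genes was on any of the marker lists. No 2 libraries were duplicates of each other.

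Of the 30 genes, 16 had a symbol and 14 had only an Ensembl identifier. Over the 30 genes and 21 libraries, 217 of 630 values were on, 168 were off and 245 lay between 0.1 and 2 CPM. Only ENSSSCG00000040547 had no value between, and 4 genes had at most 1. For 13 genes most libraries lay between, so that on and off there are the ends of a range and not separate states. A count of 0 in at least 1 library was found for 19 genes, and in at least 3 libraries for 9.

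The number of these genes that were on ran from 4 to 12 per library in Landrace and from 11 to 14 in Duroc. L9 stood apart with 4 genes on and 17 off. D2 was the most divided Duroc library, with 13 on, 13 off and 4 between. D1 was at the other end, with 1 gene off, and L7 had 3. D1 was also the shallowest library, with 41358671 counts. Some memberships rest on single libraries: the rule found 21 genes when D2 was left out and 18 when D2 and L9 were both left out, all of them among the 30.

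**Figure D1:**
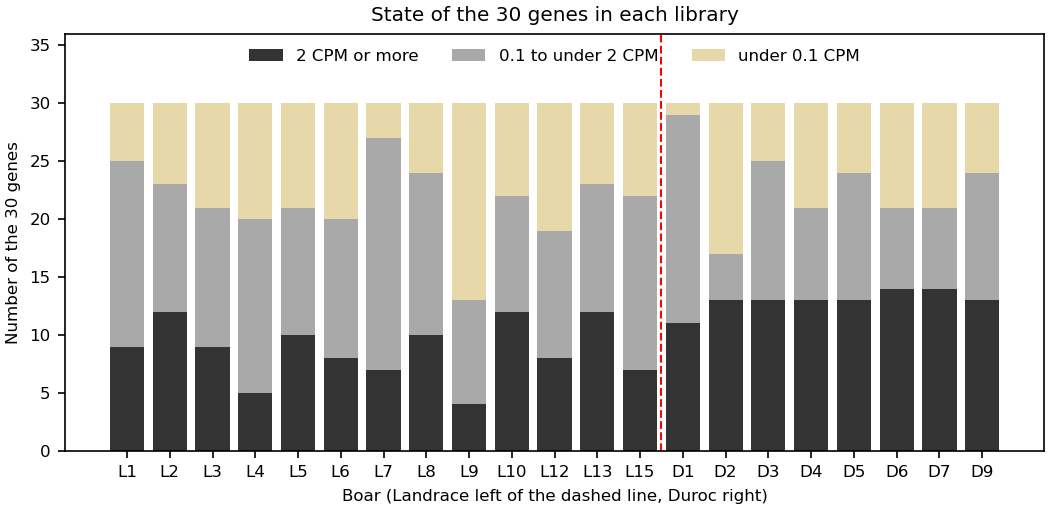
Stacked bars giving, for each boar, how many of the 30 genes were at 2 CPM or more, between, or under 0.1 CPM, with Landrace left and Duroc right of the dashed line. L9 has 17 genes off, D2 has 13 off and D1 has 1 off.

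By breed, 20 of the 30 genes were on in at least 1 boar of each breed, 7 in Duroc only and 3 in Landrace only. Of the 30, 10 were both on and off within each breed. A set of 11 were off in Landrace boars only and 5 in Duroc boars only. No gene was on in every boar of one breed and off in every boar of the other. NPTX2 was on in all 8 Duroc boars but off in only 4 of the 13 Landrace boars. ENSSSCG00000013150 was off in all 13 Landrace boars but on in only 3 Duroc boars. ENSSSCG00000032079 was on in 9 Landrace boars and off in 7 Duroc boars.

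The comparison of the breeds asked which genes differ between Duroc and Landrace testes. It was fitted with the quasi-likelihood test of edgeR over the 13811 genes that reached 1 CPM in 3 or more libraries, a filter that all 30 genes pass by their own rule, and p-values were adjusted by Benjamini and Hochberg's method. Of the 30, 9 passed an adjusted p of 0.05, 6 of them higher and 3 lower in Duroc. Over all genes tested, 3.21% passed, with 1.55% higher and 1.67% lower in Duroc. The rule did not use breed, but it chose genes for large differences between libraries, so the counts are a description and not evidence about the set. The median absolute log2 fold change was 1.52 over the 30 genes and 0.11 over all genes. The CPM of the breeds did not overlap for 3 of the 30 genes, beside 0.34% of all genes tested.

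NPTX2 encodes neuronal pentraxin 2, a secreted protein that gathers glutamate receptors at synapses. Its level was 0.0103 CPM at the lowest, 0.13 at the median and 0.29 at the highest in the Landrace boars, and 3.85, 9.92 and 16.1 CPM in the Duroc boars. The breeds did not overlap, and D7 was the lowest Duroc boar. The fitted log2 fold change, Duroc over Landrace, was 6.37 ± 0.32 (SE, n = 8 and 13; edgeR adjusted p = 2.55e-12), the smallest p of all genes tested. NPTX2 lies on chromosome 3 at 5720686 to 5732458 (Sscrofa11.1, RefSeq). The genes on either side were level between boars by comparison: BAIAP2L1 ranged from 3.11 to 8.59 CPM and TMEM130 from 0.0809 to 0.83 CPM. Its relatives NPTX1, at 5.52 to 24 CPM, and the pentraxin receptor NPTXR, at 2.47 to 19.6 CPM, were on in all 21 libraries.

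ENSSSCG00000034866, a gene with no symbol here, had the largest fitted difference of the 30. In Landrace its lowest, median and highest levels were 0.0417, 0.167 and 0.315 CPM. In Duroc they were 0.521, 17.5 and 39.7 CPM, in a group where 7 boars lay at 13.2 CPM or more and D5 alone at 0.521. The breeds did not overlap (log2 fold change 6.92 ± 0.46 (SE); edgeR adjusted p = 2.62e-10).

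SMIM18, which encodes a small membrane protein, was the third gene whose breeds did not overlap. Its Landrace boars lay from 0.018 to 0.295 CPM with a median of 0.0867, and its Duroc boars from 1.07 to 2.95 CPM with a median of 1.37. The log2 fold change was 3.88 ± 0.34 (SE; edgeR adjusted p = 5.3e-08). Only 3 Duroc boars reached 2 CPM, so most of the Duroc values lay between the thresholds. SMIM18 lies inside the span of GTF2E2 on chromosome 15 (54455954 to 54465599 within 54444480 to 54525566), and GTF2E2, which encodes a subunit of a general transcription factor, was at 83.6 to 154 CPM in every boar.

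ENSSSCG00000013150 was off in all 13 Landrace boars, at 0 to 0.0899 CPM. The Duroc boars read D1 0.94, D2 2.31, D3 3.69, D4 0, D5 1.26, D6 1.69, D7 2.08 and D9 0.70 CPM. The breeds overlapped through D4 alone, which had no read of this gene (log2 fold change 6.71 ± 0.71 (SE); edgeR adjusted p = 1.61e-06).

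SNX20 and ENSSSCG00000014761 were also higher in Duroc, with overlap. SNX20 encodes a sorting nexin, a protein of endosome membranes, described mainly in white blood cells. It ran from 0 to 0.433 CPM in Landrace and from 0.0761 to 3.84 CPM in Duroc, where D1 and D4 lay in the Landrace range (log2 fold change 3.32 ± 0.58 (SE); edgeR adjusted p = 0.000929). The marker sums for macrophages were 64 to 229 CPM in Landrace and 58.3 to 130 CPM in Duroc, and those for T and B cells 9.15 to 15.7 and 9.49 to 15.1 CPM. Their part in the SNX20 difference was not tested. ENSSSCG00000014761 ran from 0.0135 to 1.06 CPM in Landrace and from 0.629 to 5.79 CPM in Duroc, and D1 was its lowest Duroc boar (log2 fold change 3.07 ± 0.60 (SE); edgeR adjusted p = 0.0031).

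The other 3 called genes were lower in Duroc. ENSSSCG00000032079 had a Landrace median of 2.32 CPM and a highest value of 3.83, with L5 at 0. In Duroc, D1 read 1.60 CPM and the other 7 boars 0 to 0.00796 CPM. L5 and D1 were thus the exceptions of their breeds (log2 fold change -3.84 ± 0.95 (SE); edgeR adjusted p = 0.0213), and without D1 the log2 fold change was -9.21. Among all tested genes, the one whose level over the 21 libraries was most like it was KIT, with Spearman's rho of 0.86, a description over libraries that share breed. KIT encodes the stem cell factor receptor of spermatogonia and pigment cells, and is on the fixed spermatogonium list. It was itself lower in Duroc in the same fit (log2 fold change -1.40; adjusted p = 0.000464), and no other gene of that list of 5 passed.

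THEM5 encodes a mitochondrial thioesterase that acts on long-chain acyl-CoA. Its lowest, median and highest levels were 0.504, 0.809 and 4.33 CPM in Landrace, where L8, L10 and L12 alone were on. In Duroc they were 0, 0.0615 and 1.0 CPM, and D3 held the highest value (log2 fold change -2.94 ± 0.75 (SE); edgeR adjusted p = 0.027). KRT4, a keratin of moist stratified epithelia, ran from 0.054 to 7.66 CPM in Landrace and from 0.0829 to 1.21 CPM in Duroc, with wide overlap (log2 fold change -2.38 ± 0.65 (SE); edgeR adjusted p = 0.0417). The calls of THEM5, KRT4 and ENSSSCG00000032079 each ended when certain single boars were left out, with adjusted p reaching 0.0593, 0.0865 and 0.0513. The other 6 held in every such fit that tested them.

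**Figure D2:**
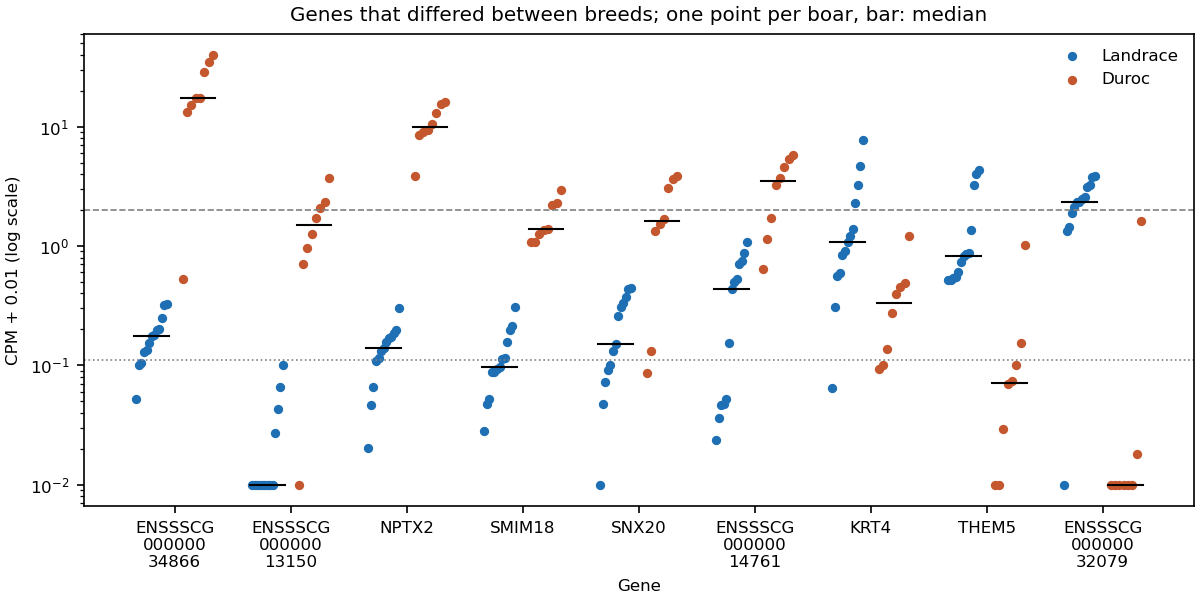
CPM + 0.01 on a log axis for the 9 genes that differed between breeds, with 1 point per boar (13 Landrace, 8 Duroc), a bar at the median, a dashed line at 2 CPM and a dotted line at 0.1 CPM. The points of NPTX2, SMIM18 and ENSSSCG00000034866 do not overlap between breeds, while ENSSSCG00000032079 has 1 low Landrace boar (L5) and 1 high Duroc boar (D1).

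A further 6 genes had an unadjusted p under 0.05 between breeds and did not pass the adjusted threshold. KLB, the co-receptor of endocrine fibroblast growth factors, was on in 3 Duroc boars only, and its Landrace boars ranged up to 1.69 CPM (log2 fold change 1.74, adjusted p = 0.135). LYPD6B, a membrane-anchored protein that modulates nicotinic acetylcholine receptors, was off in 8 Landrace boars and in no Duroc boar, and on in L1 at 2.63 CPM (1.95, adjusted p = 0.216). CNGA3, a subunit of the cyclic nucleotide-gated channel of cone photoreceptors, was on in 5 Duroc and 3 Landrace boars (1.52, adjusted p = 0.313). C1QTNF7, a secreted protein of the C1q and tumour necrosis factor family, was off in 4 Duroc boars and in no Landrace boar (-1.51, adjusted p = 0.214). ENSSSCG00000037720 was at 1.17 to 3.60 CPM in every Landrace boar and off in 4 Duroc boars, but D9, at 3.68 CPM, was the highest of all (-1.76, adjusted p = 0.124). ENSSSCG00000031336 was on in 6 Landrace boars, up to 10.5 CPM in L3, and in D1 alone among the Duroc boars (-2.29, adjusted p = 0.176).

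Other genes were all or none within a breed. CYP1A2, a cytochrome P450 of liver that oxidizes caffeine and, in pigs, the boar taint compound skatole, showed the widest gap. Its level was 34.9 to 99.1 CPM in 16 libraries. The other 5 were L3 at 0.01, L6 at 0, L7 at 0.03, L9 at 0.05 and D2 at 0.11 CPM, or at most 9 reads. No library lay between 0.11 and 34.9 CPM. The split followed no group: in contrast (i) L6 and L7 of the high group and L3 of the low group were off (log2 fold change -0.29, edgeR adjusted p = 0.898), in contrast (iii) L7 of the high and L9 of the low group (-0.04, adjusted p = 0.988), and in the breed comparison the log2 fold change was 0.90 (adjusted p = 0.906).

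CYP1A2 lies on chromosome 7 at 58779529 to 58786155, and its neighbours were looked at after its values were seen. CYP1A1, the sister gene 16732 bases away, was the gene most like it over the 21 libraries (Spearman's rho 0.78) but stayed at 0 to 1.24 CPM. In the 5 libraries without CYP1A2, CYP1A1 stood at 0 to 0.22 CPM. L9, at 0, lay below the other Landrace boars (0.0861 to 0.503 CPM), and D2, at 0.118, lay below the other Duroc boars (0.653 to 1.24 CPM). CSK, on the other side, was at 0.521 to 2.88 CPM. AHR, which encodes the receptor that induces CYP1A genes, was at 13 to 30.8 CPM, and CYP1B1 at 25.3 to 209 CPM. The steroid-making CYP17A1 and CYP11A1 were on in all 21 libraries. Of the 29 cytochrome P450 genes counted, CYP1A2 alone met the rule.

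ENSSSCG00000040547 was the single gene with no value between the thresholds. Its 13 Landrace boars lay at 6.91 to 14.1 CPM. In Duroc, D1 at 7.04, D2 at 5.34, D4 at 9.29, D5 at 14.2 and D9 at 6.98 CPM were on, and D3 and D7 at 0.02 and D6 at 0 CPM were off. The off boars held 2 of the 3 labelled Low and 1 of the 5 labelled High (log2 fold change 1.69, edgeR adjusted p = 1). D3 was the deepest library of all, with 125576407 counts.

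SLC26A3 encodes an exchanger of chloride for bicarbonate, best known from the gut and also described in sperm. Its values fell into a high class of 14 libraries at 5.42 to 14.5 CPM, D7 alone at 1.28 CPM, and 6 Landrace libraries below that (L2 0.08, L3 0.13, L4 0.02, L9 0.04, L12 0.27 and L15 0.33). All Duroc boars but D7 were in the high class. CBLL1, 6014 bases before it on chromosome 9, was at 68.5 to 101 CPM throughout. Of the 9 other SLC26 genes counted, 6 were on in at least 2 libraries, among them SLC26A8, the testis anion transporter, at 478 to 673 CPM. SLC26A3 was 1 of 340 solute carriers counted and the only one to meet the rule.

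Several genes with no symbol had a similar gap. ENSSSCG00000025687 was on in all 8 Duroc boars (2.23 to 7.59 CPM) and 8 Landrace boars (2.41 to 10.3 CPM), and L1, L6, L8, L9 and L12 lay at 0 to 0.10 CPM. ENSSSCG00000039406 was off in 9 Landrace boars and D9, all at 0.07 CPM or less, and lay at 1.95 to 14.6 CPM in the other 11. The fitted breed difference of ENSSSCG00000039406 was 2.05 on the log2 scale (SE 1.01; edgeR adjusted p = 0.42). ENSSSCG00000038135 was off in L3, L4, L6, L15 and D9 and reached 17.3 CPM in D5, with L7 at 1.31 and D3 at 1.80 CPM between. ENSSSCG00000036179 was off in L3, L9 and L13 and at 1.33 to 8.94 CPM in every other boar.

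**Figure D3:**
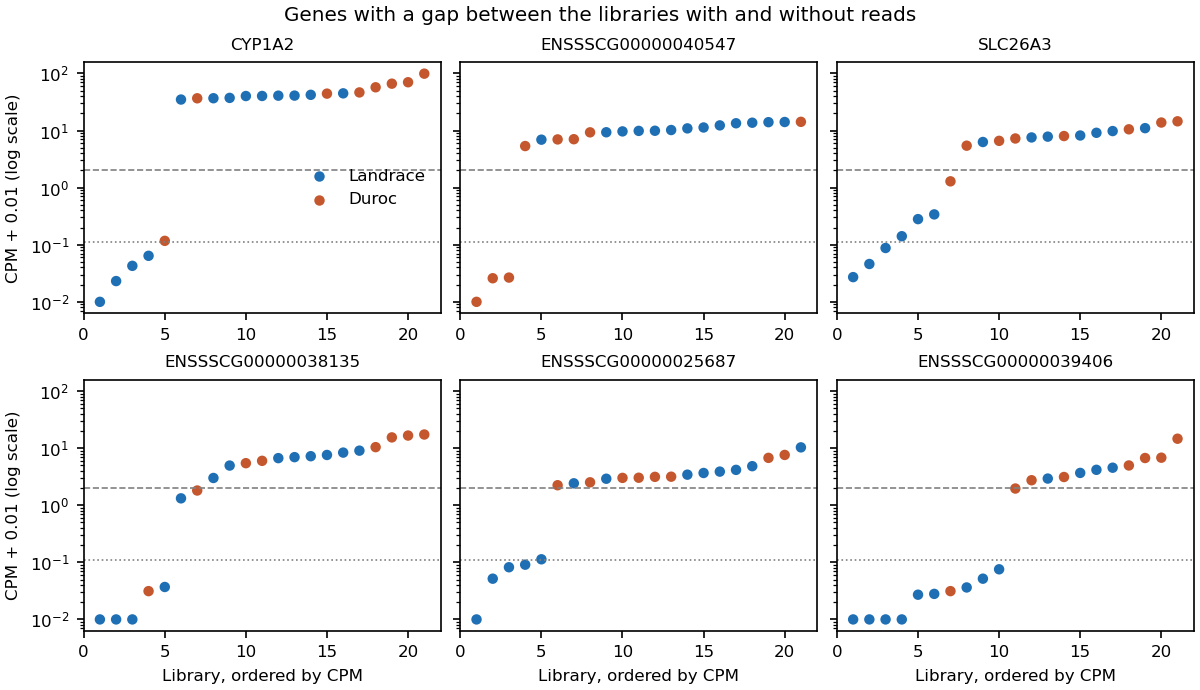
CPM + 0.01 on a log axis for 6 genes, with the 21 libraries of each panel ordered by CPM and coloured by breed (blue Landrace, orange Duroc), a dashed line at 2 CPM and a dotted line at 0.1 CPM. CYP1A2 jumps from 0.11 to 34.9 CPM between neighbouring libraries, and ENSSSCG00000040547 from 0.02 to 5.34 CPM.

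ENSSSCG00000037477, annotated as similar to tetratricopeptide repeat protein 37 (TTC37-like), is the example the study itself discusses, for its level in contrast (i), and it was chosen here from the same values. Its values are therefore a description, and its tests are no independent evidence. The study reports it as most down-regulated in the high group of that contrast. Here its level was higher in the high group, although the study's own account puts the same boars in each group. The reason for the opposite direction was not tested. TTC37, now also SKIC3, is the scaffold of the Ski complex, which unwinds RNA and feeds it to the cytoplasmic exosome for breakdown. No gene in the count tables carried the name TTC37 or SKIC3, so how reads divide between them was not analysed here. Over all 21 libraries, TTC37-like was on in 9, off in 9 and between in 3, and it was on and off in both breeds (5 on and 6 off in Landrace, 4 on and 3 off in Duroc).

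In contrast (i), the high group read L5 2.22, L6 2.84, L7 1.96 and L8 6.70 CPM. The low group read L1 1.75, L2 0.06, L3 0 and L4 0.02 CPM. The groups did not overlap, with L1 just below L7, and 26.4% of all genes tested in this contrast had groups that did not overlap. The log2 fold change, high over low, was 3.13 ± 1.14 (SE, n = 4 and 4), opposite in direction to the study's account. It did not pass the adjusted threshold (edgeR adjusted p = 0.0663). The likelihood ratio test gave 0.0499 and DESeq2 0.126. With any 1 of the 8 boars left out, the log2 fold change was 2.52 to 7.04 and the edgeR adjusted p 0.0294 to 0.144, the highest fold change and lowest p being without L1. Without L1 the gene passes the filter only through its high group, so the values of that fit are a description. A two-sided exact permutation test of the mean log2(CPM + 0.1) gave p = 0.0286, the lowest value possible with 4 boars a group.

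In contrast (iii), the high group read L7 1.96, L13 4.65 and L15 2.78 CPM. The low group read L2 0.06, L9 0.02, L10 0.02 and L12 0 CPM, a total of 7 reads. The groups again did not overlap, beside 15.5% of all genes tested, and the exact permutation p was 0.0286, again the lowest possible. The gene was left out of the fit, since it reached 1 CPM in 3 libraries and the filter asks for 4. With 1 CPM asked of 2 libraries, its log2 fold change was 6.65 ± 0.60 (SE). It passes that filter only through its high group, and the filter was loosened with its values known, so the fold change is a description without a test.

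Since L2 and L7 stand in both contrasts, their agreement is not 2 separate observations. Without these 2 boars, the log2 fold change was 2.92 ± 1.21 in contrast (i) (SE; edgeR adjusted p = 0.122) and, with the looser filter, 7.95 ± 0.67 (SE) in contrast (iii), again as a description. In these fits 3 boars against 3 and 2 boars against 3 were left.

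In Duroc the gene did not divide by label. Of the boars labelled High, D3 at 2.10 and D5 at 3.07 CPM were on, D1 lay at 0.70, and D2 at 0 and D4 at 0.02 CPM were off. Of those labelled Low, D6 at 2.59 and D9 at 2.87 CPM were on and D7 at 0 was off. The log2 fold change was -0.66 ± 1.38 (SE, n = 5 and 3; edgeR adjusted p = 1). The difference between the effect in contrast (i) and the effect in Duroc was 3.76 ± 2.04 on the log2 scale (SE; edgeR adjusted p = 0.357), and 2.44 ± 2.08 with the Duroc labels exchanged (adjusted p = 0.455), so a difference in effect between the breeds was not shown. Between breeds the log2 fold change was -0.43 ± 1.03 (SE; edgeR adjusted p = 0.998).

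**Figure D4:**
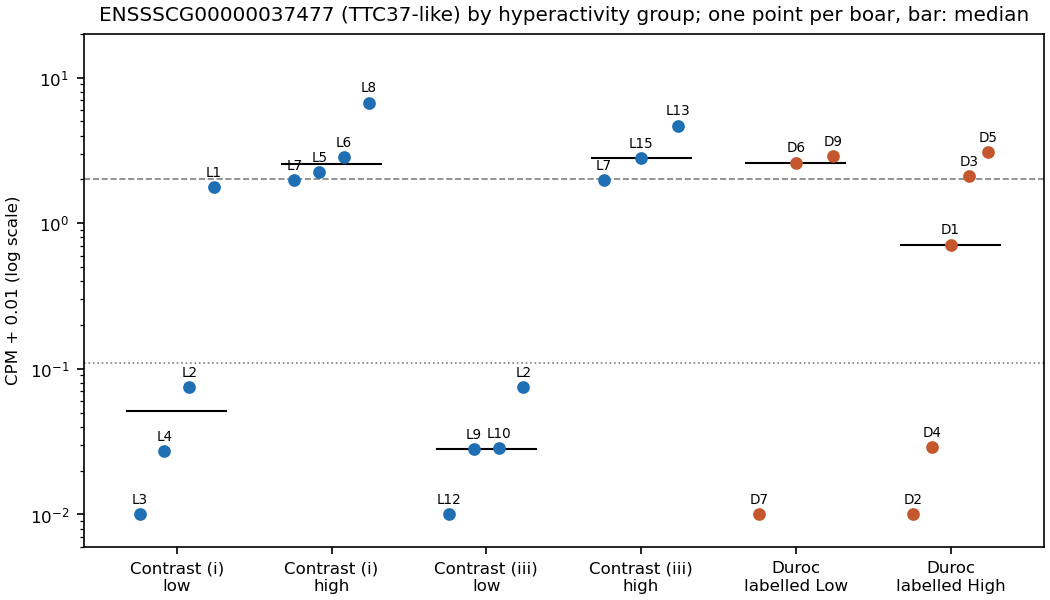
CPM + 0.01 of TTC37-like on a log axis in each hyperactivity group, with 1 labelled point per boar, a bar at the median, a dashed line at 2 CPM and a dotted line at 0.1 CPM (blue Landrace, orange Duroc). The high groups of both Landrace contrasts lie at 1.96 CPM or more and above every low boar, while the Duroc groups each hold boars at 0 and above 2 CPM.

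Other measures differed with the Landrace contrasts. In contrast (i) the peritubular markers summed to 14.5 to 62.1 CPM in the high group and 49.4 to 122 CPM in the low group, and 2 of the 4 tested were lower in the high group, beside 15.8% of all genes. The skeletal muscle markers summed to 0.27 to 0.709 CPM in the high group and 1.23 to 2.55 CPM in the low group, and none reached the filter. Of the 8 spermatid markers 2 were called lower and 0 higher in the high group, with a median log2 fold change of 0.14. Their sums overlapped, at 11300 to 14500 CPM in the high group and 10900 to 14500 CPM in the low group. Of the 2 blood markers tested, HBB was lower in the high group (log2 fold change -2.53, edgeR adjusted p = 0.0376). The other, AHSP, was not called (log2 fold change 0.3). The fat markers summed to 37.4 to 59.7 and 61.7 to 75 CPM, with none of 2 called. In contrast (iii) the spermatid markers summed to 7150 to 12500 CPM in the high group and 11600 to 14500 CPM in the low group. The libraries held 64052547 to 97059970 counts in the high group and 53644587 to 77217140 in the low group of contrast (i). The part of these in the TTC37-like result was not tested.

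The other subunits of the Ski complex and the RNA exosome were taken from a fixed list of 24 genes, of which 17 were counted and 15 tested. In contrast (i) 2 were higher and 2 lower in the high group, beside 4.82% and 15.8% of all genes. SKIC2, the helicase of the Ski complex, fell by 1.18 on the log2 scale (edgeR adjusted p = 0.0222) and EXOSC5, an exosome core subunit, by 1.16 (adjusted p = 0.0413). MTREX, the nuclear exosome helicase, rose by 0.47 (adjusted p = 0.0464) and HBS1L, whose locus also encodes an adaptor that links Ski and exosome, by 0.37 (adjusted p = 0.0414). None of the 15 was called in contrast (iii), between breeds or by the Duroc labels, and SKIC8, the third Ski subunit, was at 143 to 202 CPM in every boar.

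The genes whose levels over the 21 libraries were most like TTC37-like among the 30 were CBLN4, SLC26A3 and PCDHB7, with Spearman's rho of 0.69, 0.40 and 0.28, given as a description over libraries of 2 breeds. CBLN4 encodes cerebellin 4, a secreted organizer of synapses. In contrast (i) it read L5 1.69, L6 3.10, L7 2.35 and L8 3.0 CPM in the high group and L1 1.68, L2 2.10, L3 0 and L4 0 CPM in the low group. The groups overlapped through L2 (log2 fold change 1.56 ± 1.04 (SE); edgeR adjusted p = 0.261). For SLC26A3 the high group read L5 8.18, L6 6.29, L7 11.0 and L8 9.78 CPM, and the low group L1 7.81, L2 0.08, L3 0.13 and L4 0.02 CPM. Here L1 lay in the high range (log2 fold change 2.29 ± 1.20 (SE); edgeR adjusted p = 0.161). PCDHB7, a clustered protocadherin of the beta family, whose members are alike in sequence and can lose reads that align to several of them, was on in L2, D5 and D9 only and had no read in 10 libraries.

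No member was called in any hyperactivity comparison as fitted. In contrast (i) 17 of the 30 genes passed the filter and 0 were called by edgeR, 1 at an unadjusted p under 0.05, beside 20.7% called of all 12979 genes. That share hung on single boars: 2682 genes were called with all boars, but 1 without L3 and 1 without L6. DESeq2 also called 0 of the members and the likelihood ratio test 1, TTC37-like. In contrast (iii) 14 passed and 0 were called, 1 at an unadjusted p under 0.05, as were 0 of all 12824 genes, or 0%, with 2540 at an unadjusted p under 0.05. In Duroc 20 passed and 0 were called or reached an unadjusted p under 0.05, as were 0 of all 13043 genes, or 0%, with 158 at an unadjusted p under 0.05.

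Among the 14 members tested in contrast (iii), 1 had groups that did not overlap, beside 15.5% of all genes tested. This gene, ENSSSCG00000038135, read L2 7.58, L9 6.94, L10 7.21 and L12 8.34 CPM in the low group and L7 1.31, L13 4.94 and L15 0 CPM in the high group (log2 fold change -1.88 ± 0.93 (SE); edgeR adjusted p = 0.278; exact permutation p = 0.0286, the smallest possible). Besides TTC37-like, another pair of members under the filter had groups that did not overlap. The share of all genes under the filter was not computed. SMIM18 stood at 0.0867 to 0.295 CPM in the high group and 0.018 to 0.0777 CPM in the low group (exact permutation p = 0.0286). These were 5 to 24 and 1 to 6 reads. ENSSSCG00000034866 stood at 0.191 to 0.307 and 0.0417 to 0.167 CPM (exact permutation p = 0.0571). Genes picked for groups that do not overlap get a permutation p at or near the smallest possible, so these p-values are a description. In contrast (i) ENSSSCG00000038135 was off in L3 and L4 of the low group and L6 of the high group. No member tested in Duroc had labelled groups that did not overlap, beside 1.79% of all genes. The nearest to it by permutation was ENSSSCG00000037672, which had no read in D2, D4 and D5, read 0.36 in D1 and 1.79 in D3, and read 1.42, 1.83 and 2.19 CPM in the 3 boars labelled Low (exact permutation p = 0.0536, where 0.0179 is the smallest that 5 against 3 allow).

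The remaining genes were called neither between breeds nor in a hyperactivity comparison. DKK2, a secreted modulator of Wnt signalling, was on in L6, L10, L13, D5 and D7, up to 9.31 CPM in D7, and its neighbour on chromosome 8, PAPSS1, had a rho of 0.69 with it over the 21 libraries at 21.3 to 56.8 CPM. HAL, histidine ammonia-lyase, which starts the breakdown of histidine, was on in L12, L13 and D3 and off in L3, L5 and L9. AMDHD1, a later enzyme of the same pathway and its neighbour on chromosome 5 at a distance of 4398 bases, was at 0.196 to 1.96 CPM with a rho of 0.55. KRT7, a keratin of simple epithelia, was off in D2, D3 and D6 but in no Landrace boar, and at most 3.47 CPM in L1. Between breeds its log2 fold change was -0.95 (edgeR adjusted p = 0.667; unadjusted exact permutation p = 0.0131). The RefSeq entry of that symbol is classed as a non-coding RNA, so its match is uncertain. ENSSSCG00000040343 had no read in 10 libraries and was on in L3, L7 and D6, where it reached 5.14 CPM. It was off in 7 Duroc and 5 Landrace boars (unadjusted exact permutation p between breeds = 0.0703).

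The 15 genes with a position lay on 9 chromosomes. KRT7 and KRT4, in the keratin cluster of chromosome 5, were the only pair within 1 Mb, at 0.52 Mb, and the next nearest pair, C1QTNF7 and KLB on chromosome 8, was 19.9 Mb apart. The median gene length was 25007 bases for these 15 and 28194 bases for all 13707 genes with a position. By family, the 30 held 2 of 35 keratins, 1 of 29 cytochromes P450 and 1 of 340 solute carriers. None belonged to the histocompatibility, immunoglobulin, T cell receptor, olfactory receptor, defensin, interferon, histone, serpin, zinc finger or ribosomal protein genes.

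The rule's thresholds fell within a continuum. The members just inside were HAL, whose lowest on value was 2.02 CPM and highest off value 0.0899 CPM, PCDHB7, with a lowest on value of 2.06 CPM, and ENSSSCG00000013150, with 2.08 CPM. Just outside were ENSSSCG00000036241, whose value of rank 3 from the top was 1.99 CPM, and SLC5A7 and GRM4, whose values of rank 3 from the bottom were 0.103 and 0.104 CPM. SLC5A7, the choline transporter of cholinergic nerve endings, was at 0.09 to 1.05 CPM in Landrace and 1.96 to 34.3 CPM in Duroc, and GRM4, a glutamate receptor, at 0.07 to 3.38 CPM.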

How the data were processed

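Total RNA of testis tissue was sequenced by the authors as stranded, single-end messenger RNA libraries. Per the labels and the study's methods, reads were trimmed with Trimmomatic 0.36, aligned with STAR to the pig genome Sscrofa11.1, which comes from a Duroc animal, and counted per Ensembl gene with HTSeq. The deposited values are raw read counts per gene, not normalized, 1 file per boar. Rows that name no gene (29.4 to 39.0% of reads, including reads that did not align uniquely, 5.83 to 8.28% of all reads) were removed. Reads of both breeds met the same reference, and the part of this in breed differences was not tested.

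CPM were computed on raw gene totals. Comparisons used edgeR 4.0.16 (quasi-likelihood test, TMM, R 4.3.3) on the boars of each comparison, for genes that reached 1 CPM in 4 or more libraries (3 for breed), with Benjamini-Hochberg adjustment over all tested genes and a threshold of 0.05. SE is the log2 fold change over the root of its F statistic. Single genes were also compared by two-sided exact permutation of mean log2(CPM + 0.1), unadjusted. The p-values measure the spread between boars. The study states edgeR's likelihood ratio test, run here as an alternative with DESeq2 1.42.0, relative log expression, a robust fit, other filters and leaving out boars. In simulated counts the test recovered 99 of 100 genes changed 4-fold for breed (13811 genes), 96 of 97 for contrast (i) (12979 genes), 93 of 98 for contrast (iii) (12824 genes) and 82 of 92 for the Duroc labels (13043 genes). Of genes changed 2-fold it recovered 87 of 100 for breed, 69 of 97 for contrast (i), 54 of 99 for contrast (iii) and 34 of 98 for the Duroc labels. It also called unchanged genes: 11 for breed, 13 for contrast (i), 8 for contrast (iii) and 6 for the Duroc labels. No separate rate was computed for the members, so these rates do not measure how often a change in a member would be missed.

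Groups came from the deposited labels. Members and gene lists were chosen with earlier results of these data known. Genes named are TTC37-like, members with no value between the thresholds, those on in one breed and off in the other (there were 0), the 4 largest called changes per comparison, members within 1 Mb of each other, the 3 most like TTC37-like, those on fixed lists and those nearest the thresholds. The other members, and the neighbours and relatives given, were added after their values were seen. A table of identifiers gave symbols for 14855 genes, and positions came from RefSeq, matched by symbol for 15 of the 30 genes. Sequences were not used here.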

Additional observations from a re-analysis of the deposited data

Results flagged for a closer look

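In 15 groups of 4 to 10 libraries, the CPM of the genes tested above were checked for a highest or lowest boar set far apart from the rest by Dixon's ratio. For normally distributed values, chance flags about 1 group in 20. The genes were chosen for libraries far apart, so the flags cannot be read against that rate. There were 4 such flags. In the low group of contrast (i), L1 had 1.75 CPM of TTC37-like and the other 3 boars at most 0.06 CPM. Among the 8 Duroc boars, D1 stood apart for KRT4, at 1.21 CPM, and for ENSSSCG00000032079, at 1.60 CPM, and D3 for THEM5, at 1.0 CPM. D1 and D3 are the shallowest and the deepest library, with 41358671 and 125576407 counts, and the part of depth in these values was not tested.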

How the results depend on the processing

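The number of genes depended on the rule, whose thresholds cut a continuum. It was 68 with an on level of 1 CPM, 10 with 5 CPM, 17 with an off level of 0.05 CPM, 9 with a count of 0, 56 with 2 libraries on each side, 12 with 4, 8 in Landrace alone and 2 in Duroc alone, and it was 21 to 30 when 1 boar was left out and 18 without L9 and D2. TMM-scaled CPM gave 30, of which 26 were shared. Members called between breeds numbered 4 with 1 CPM asked of 8 libraries, which tests fewer of them, and 7 to 9 when 1 boar was left out. They were 7 without L9 and D2. In contrast (i), in place of 0, the likelihood ratio test called 1, no filter on low counts 2 (TTC37-like and THEM5), and leaving out 1 boar 0 to 2, with 2 only without L1. Without L1, TTC37-like passes the filter only through its high group. Over all genes, the calls of contrast (i) numbered 2682 with all boars, 3764 without L5, 1 without L3 and 1 without L6. At most 1 of the marker, Ski and exosome calls above can therefore hold without L3 or without L6. In contrast (iii), in place of 0, 1 member (TTC37-like) was called with no filter and with 1 CPM asked of 2 or, chosen after seeing the data, 3 libraries. With 1 CPM asked of 2 libraries it was also 1 by the likelihood ratio test, by DESeq2, by a robust fit and without the 2 shared boars, and leaving out 1 boar gave 0 to 1. These calls support nothing, since the gene passes those filters only through its high group. In Duroc no alternative called a member. The log2 fold changes of the single genes above had 340 alternatives, of which 315 kept direction and side of the threshold, 21 lost it, 3 passed it, and 1 reversed (TTC37-like between breeds, -0.67 to 0.03 when 1 boar was left out, 0.03 without L8). Causes were not tested. No paired analysis was possible because the boars' numbers only name animals. Depth limits the off state to a few reads per library.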

Other observations

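One gene of the exosome list, chosen after its values were seen, was separated by boar in the same way without ever being off. EXOSC9, a core subunit of the RNA exosome, stood at 199 CPM in L2, 207 in L4, 250 in L8, 215 in L9 and 194 in L12. The other 8 Landrace boars lay at 41 to 61.1 CPM and the Duroc boars at 37.5 to 53.2 CPM, except D1 at 89.7 CPM. It did not pass between breeds (log2 fold change -1.25 ± 0.38 (SE); edgeR adjusted p = 0.0759) or in contrast (iii), where L2, L9 and L12 of the low group were high (-1.57 ± 0.39 (SE); edgeR adjusted p = 0.24). In contrast (i), where L2 and L4 of the low group and L8 of the high group were high, no difference was resolved (-0.10 ± 0.64 (SE); edgeR adjusted p = 0.91).

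ADAM7, a sperm surface protein gene of the fixed epididymis list, was at 17.6 to 62.4 CPM in 20 libraries and at 0.709 CPM in L12. The other genes of that list were at or under 1.12 CPM in every library.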
